A study of Mus musculus with 4 samples.

Results

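Carnitine carries fatty acyl groups across membranes that acyl-CoA cannot cross. In liver, SLC22A5 (OCTN2) brings carnitine into the cell, and CPT1A on the outer mitochondrial membrane moves a long-chain acyl group from coenzyme A to carnitine, the step that malonyl-CoA inhibits. SLC25A20 then exchanges the acylcarnitine for free carnitine across the inner membrane, and CPT2 on its inner face re-forms acyl-CoA for beta-oxidation. CRAT and CROT are related transferases for short-chain and medium-chain acyl groups, and CROT works in peroxisomes, where it prepares chain-shortened products for export to mitochondria. The genes of this shuttle are textbook targets of PPAR alpha, the nuclear receptor with which lipin 1 acts as a coactivator.

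The 6 genes Cpt1a, Cpt2, Slc25a20, Slc22a5, Crat and Crot were read by 12 of the 22626 probe sets on the array that are not controls, taken as every probe set whose only annotated gene symbol is one of these. Affymetrix Mouse Expression 430A arrays were hybridised with liver RNA from adult male C57BL6 mice that had received an adenovirus expressing GFP (green fluorescent protein, the control) or mouse lipin 1beta and were killed on day 6. Each group has 2 arrays, all mice of both groups carried an adenovirus, and no uninfected group was analysed here. The labels do not say whether arrays of the same group are separate mice, which promoter drove the transgene or which share of the liver cells took it up. The p-values therefore reflect only how these samples vary, and that variation may be technical. In whole liver, a change in the number of cells of a type and a change in RNA per cell cannot be told apart.

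Signals are MAS5 values in arbitrary units, scaled to an equal trimmed mean of 1501 on every array. GFP replicate 2 stood apart from the other arrays, with a mean correlation of 0.731 against 0.781 to 0.793 for the rest. It had the highest beta-actin ratio (signal at the 3' end over that at the 5' end, a measure of RNA integrity), at 4.22 against 1.77 to 2.86. The same ratio for Gapdh was also highest there but less far apart, at 2.01 against 1.52 to 1.78. Lipin replicate 2 is labelled polyA RNA and the other arrays total RNA, so its RNA type cannot be told apart from the array itself. Lpin1, the gene carried by the vector, did not separate the groups. On its brighter probe set (1426516_a_at) the GFP arrays read 7082 and 4632, lipin replicate 1 read 3854 and lipin replicate 2 read 11087. On the other (1418288_at) the GFP signals were 2730 and 1430, beside 2261 and 6719 for lipin replicates 1 and 2. Lipin replicate 1 therefore lay within or below the GFP range on both, so directions below rest on the labels alone. The position of these probes on the vector's cDNA is not known here, and probes outside it check nothing. All 8 hepatocyte markers measured, among them albumin, were bright, with no signal below 9474.

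Because the probe sets of Cpt2, Slc25a20 and Cpt1a are those described most fully below, the sequence before their annotated starts is shown first, from the RefSeq promoter table (GRCm38.p6), matched by gene symbol for 5 of the 6 genes. Capitals mark GC boxes (GGGCGG on either strand), CCAAT boxes (CCAAT on either strand) and the nuclear receptor core sequence AGGTCA (on either strand). The Cpt2 window is the 250 bases before the start, chr4:107923590-107923839 on the minus strand, and the Slc25a20 window is chr9:108661886-108662135 on the plus strand. For Cpt1a a stretch of 30 bases around its AGGTCA match is shown, chr19:3323195-3323224 on the plus strand, with only that match in capitals.
Cpt2: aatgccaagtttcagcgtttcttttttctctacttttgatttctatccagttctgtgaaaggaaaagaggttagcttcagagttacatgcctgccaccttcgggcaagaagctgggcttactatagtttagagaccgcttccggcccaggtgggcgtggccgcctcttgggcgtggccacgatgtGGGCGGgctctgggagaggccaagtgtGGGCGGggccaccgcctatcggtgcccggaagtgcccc
Slc25a20: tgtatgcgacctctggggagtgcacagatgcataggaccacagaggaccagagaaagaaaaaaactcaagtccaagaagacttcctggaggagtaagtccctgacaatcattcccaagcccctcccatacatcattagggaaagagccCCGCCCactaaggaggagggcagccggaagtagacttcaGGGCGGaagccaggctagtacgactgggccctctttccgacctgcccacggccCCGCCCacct
Cpt1a: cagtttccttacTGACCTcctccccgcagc

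GC boxes were the motif that the 5 windows shared. Each of the windows of Cpt1a, Cpt2, Slc25a20, Slc22a5 and Crot held 2 or 3 matches to GGGCGG. At least 1 match was present in 32.7% of all 32851 windows of this length, and the share with 2 or more was not counted. The GC content of the 5 windows ran from 56.8% to 73.6% against a median of 52.4%. AGGTCA, the core that PPAR alpha and other nuclear receptors bind, occurred in the Cpt1a window alone of the 5, 94 to 89 bases before the start and on the minus strand, and in 14.0% of all windows. Its direct repeat with 1 base between the copies (AGGTCANAGGTCA, either strand), the arrangement bound by PPAR alpha with RXR, occurred in none of the 5 and in 0.0335% of all windows. The CCAAT box occurred once each in Cpt1a and Crot, and in 33.8% of all windows. These are matches of letters in a short window and not binding sites, and a window without a match says nothing about the factor.

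Cpt2, read by its brighter probe set, had the largest difference among the shuttle genes by brightest probe set, at 2.84 times the GFP level in the arrays labelled lipin, and Crat stood at 1.73 times. For these 2 of the 6 genes both arrays labelled lipin lay above both GFP arrays. Of all 8493 genes tested, 17.3% separated in this direction and 16% in the other. The remaining genes, Cpt1a, Slc25a20, Slc22a5 and Crot, overlapped between the groups and differed by 1.24-fold or less on their brightest probe set. No probe set of the 6 genes passed correction over the whole array. The plot of signals shows all 12 probe sets.

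**Figure D1:**
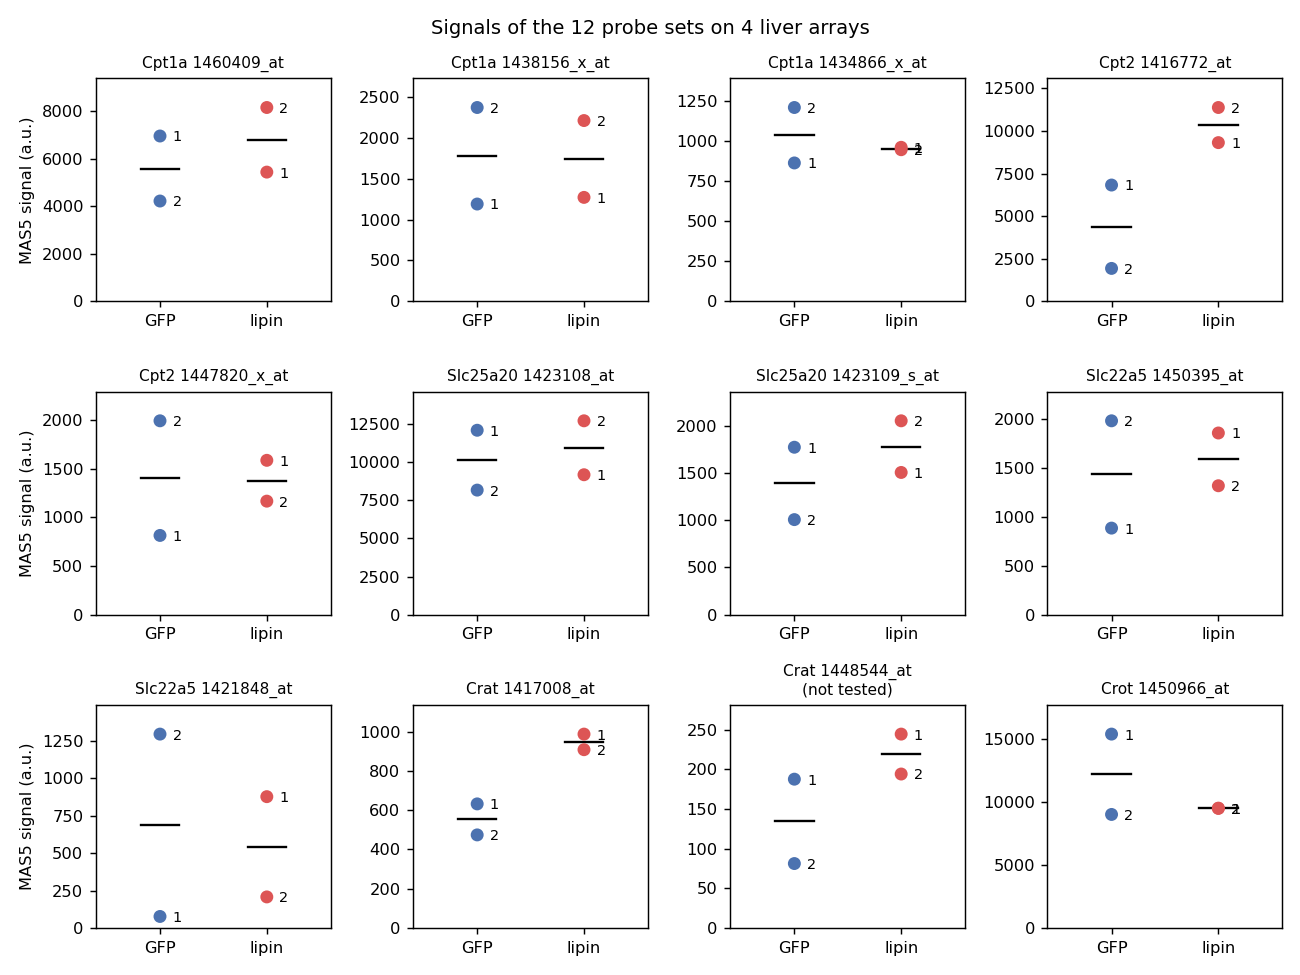
MAS5 signal in arbitrary units (vertical axis, from 0) of each of the 12 probe sets on the 2 GFP arrays (blue) and the 2 arrays labelled lipin (red), with the replicate number beside each point and a bar at the group mean. Cpt2 1416772_at reads 6828 and 1932 in GFP against 9319 and 11381 in lipin, and both Crat probe sets also have both lipin points above both GFP points, while the other 9 panels overlap.

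At the outer membrane, Cpt1a, the controlled entry step, was read by 3 probe sets. The brightest, 1460409_at, had signals of 6961 (GFP replicate 1), 4223 (GFP replicate 2), 5441 (lipin replicate 1) and 8161 (lipin replicate 2). GFP replicate 1 thus exceeded lipin replicate 1, and the groups overlapped. The log2 difference, lipin minus GFP, was 0.30 ± 0.38 (limma SE, n = 2 per group; adjusted p = 0.962), with a 95% interval of -0.51 to 1.10. It stood at -0.063 without GFP replicate 2 and at 0.0051 without lipin replicate 2.

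The other Cpt1a probe sets did not follow the brightest. Probe set 1438156_x_at gave 1192 and 2374 for GFP against 1273 and 2214 for lipin, and its log2 difference was -0.0026 ± 0.55 (limma adjusted p = 0.9996, n = 2 per group). Probe set 1434866_x_at gave 862 and 1207 against 959 and 944, with a log2 difference of -0.10 ± 0.68 (limma adjusted p = 0.987). Both carry the suffix that Affymetrix gave to sets with probes that can also match other transcripts, and on both GFP replicate 2 was the highest array, where it was the lowest on 1460409_at. Leaving out GFP replicate 2 turned the sign of all 3 Cpt1a probe sets, to 0.49 and 0.14 for the dimmer ones.

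At the inner membrane, Cpt2, which returns the acyl group to coenzyme A, differed most. Its brighter probe set, 1416772_at, had signals of 6828 (GFP replicate 1), 1932 (GFP replicate 2), 9319 (lipin replicate 1) and 11381 (lipin replicate 2). The lipin arrays were close to each other, 1.22-fold apart, whereas the GFP arrays were 3.53-fold apart, with GFP replicate 2 far below the rest. The log2 difference was 1.5 ± 0.48 (limma SE, n = 2 per group), with a 95% interval of 0.49 to 2.52, an unadjusted p of 0.00668 and an adjusted p of 0.962. It ranked 77 by p among the 13576 probe sets tested. Without GFP replicate 2 the difference was 0.59 (limma adjusted p = 0.993), and without GFP replicate 1 it was 2.41 (limma adjusted p = 0.0893). The low array also has the highest beta-actin ratio, 4.22, and the part of RNA integrity in this difference was not tested.

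The dimmer Cpt2 probe set, 1447820_x_at, gave another picture. It read 813 and 1990 in GFP and 1584 and 1165 in lipin, so both lipin arrays lay between the GFP arrays. Its log2 difference was 0.095 ± 0.62 (limma adjusted p = 0.986, n = 2 per group), and -0.55 without GFP replicate 1. GFP replicate 2, the lowest array on 1416772_at, was the highest on this one, so the 2 probe sets of Cpt2 disagree on that array. This set too carries the suffix for possible matches elsewhere.

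Slc25a20, the carrier between CPT1A and CPT2, differed little. Probe set 1423108_at read 12101 and 8173 in GFP and 9181 and 12721 in lipin, and 1423109_s_at, whose suffix marks probes shared by several transcripts, read 1771 and 1005, and 1504 and 2051. On both, the order of the arrays from high to low was lipin replicate 2, GFP replicate 1, lipin replicate 1 and GFP replicate 2, so the groups overlapped. The log2 differences were 0.12 ± 0.34 and 0.40 ± 0.55 (limma SE, n = 2 per group; adjusted p = 0.978 and 0.962), with 95% intervals of -0.61 to 0.85 and -0.78 to 1.57. Without GFP replicate 2 they were -0.16 and -0.012, and the first was -0.12 without lipin replicate 2.

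**Figure D2:**
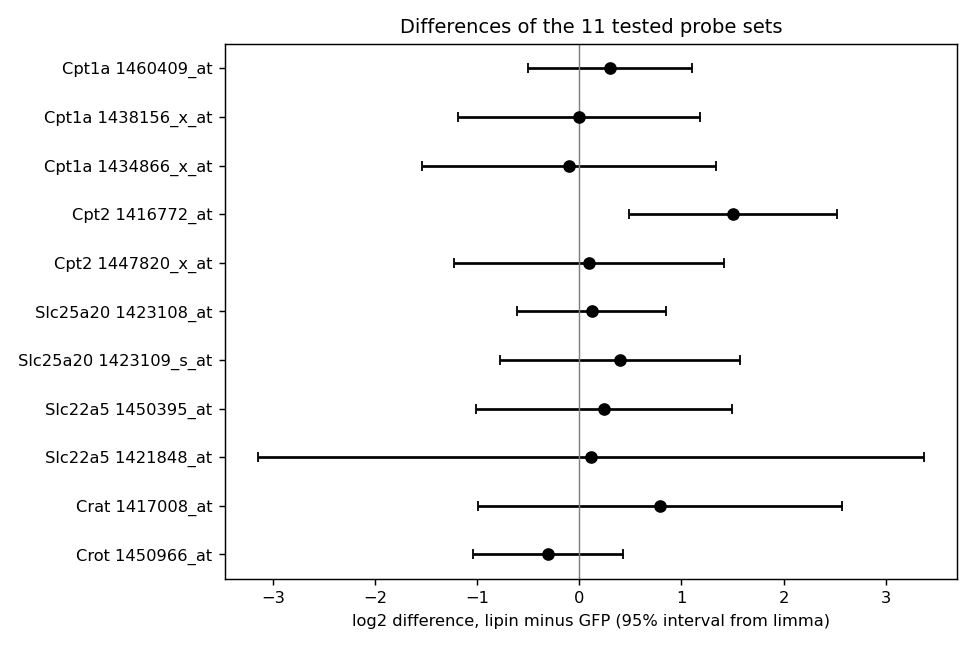
Log2 difference, lipin minus GFP (horizontal axis), of the 11 tested probe sets, with points at limma's estimate and bars for its 95% interval from 2 arrays per group. The interval holds 0 for 10 of the 11, and that of Cpt2 1416772_at runs from 0.49 to 2.52.

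Slc22a5, the carnitine transporter of the plasma membrane, was highest in GFP replicate 2. Probe set 1450395_at read 884 and 1980 in GFP and 1855 and 1316 in lipin, with both lipin arrays inside the GFP range. The log2 difference was 0.24 ± 0.59 (limma SE, n = 2 per group; adjusted p = 0.977), and it fell below 0 without GFP replicate 1 (-0.34) and without lipin replicate 1 (-0.0068). The dimmer set, 1421848_at, read 76.6 and 1297 in GFP and 878 and 207 in lipin, a 16.9-fold spread within the GFP group. GFP replicate 1 lay under 119.5, the level to which low signals were raised, so its log2 difference of 0.12 ± 1.53 (limma adjusted p = 0.997) depends on that level. Without GFP replicate 1 that difference was -1.60.

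Of the transferases for shorter chains, Crat, the carnitine acetyltransferase, was higher in the arrays labelled lipin on both probe sets. Probe set 1417008_at read 632 and 474 in GFP and 988 and 908 in lipin, or 553 ± 112 against 948 ± 56.1 (SD, n = 2 each). The groups did not overlap, and the arrays within each were at most 1.33-fold apart. The log2 difference was 0.79 ± 0.84 (limma unadjusted p = 0.359, adjusted p = 0.962), with a 95% interval of -0.99 to 2.57. This standard error is wider than the spread of these 4 values because limma draws each toward that of probe sets of similar brightness. With each array left out in turn the lowest difference was 0.58, without GFP replicate 2, and the highest was 1.00, without GFP replicate 1. The dimmer Crat set, 1448544_at, read 187 and 81.1 in GFP and 244 and 194 in lipin, again with no overlap. It was too dim to be tested, with GFP replicate 2 under 119.5 and GFP replicate 1 close to lipin replicate 2.

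Crot, the peroxisomal octanoyltransferase, was the single gene of the 6 whose difference on its brightest probe set was below 0. Probe set 1450966_at read 15429 and 9033 in GFP and 9532 and 9516 in lipin. The lipin arrays were nearly equal and both lay between the GFP arrays, of which replicate 1 was high. The log2 difference was -0.31 ± 0.34 (limma SE, n = 2 per group; adjusted p = 0.962), with a 95% interval of -1.04 to 0.42, and it was 0.076 without GFP replicate 1.

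Over the 11 tested probe sets of the shuttle genes, limma called 0 at an adjusted p under 0.05, and 0% of all 13576 probe sets were called. At an unadjusted p under 0.05, 1 of the 11 passed, Cpt2 1416772_at, which was higher in lipin, against 4.39% (596) of all probe sets in either direction and 2.47% that were higher. The standard error exceeded the difference for 10 of the 11. Counting each gene by its brightest tested probe set, the lipin arrays were both above the GFP arrays in 2 of the 6 and both below in 0, against 17.3% and 16% of the 8493 genes tested. Their median log2 difference was 0.27 (1.21-fold), beside 0.0015 over all genes tested, and 5 of the 6 lay above 0. Leaving out GFP replicate 1 gave a median of 0.53 and leaving out lipin replicate 1 gave 0.47, while dropping GFP replicate 2 or lipin replicate 2 gave 0.26 or 0.25. With 2 arrays against 1 the groups separate more often for any gene. The shuttle genes then had 5 above and 1 below without GFP replicate 1 (all genes, 33.8% and 39.9%), 3 and 1 without GFP replicate 2 (36.2% and 30%), 4 and 0 without lipin replicate 1 (30.1% and 32.7%), and 2 and 0 without lipin replicate 2 (33.3% and 30.5%). With 2 arrays on each side, the smallest two-sided p an exact permutation test of 1 gene allows is 0.333.

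**Figure D3:**
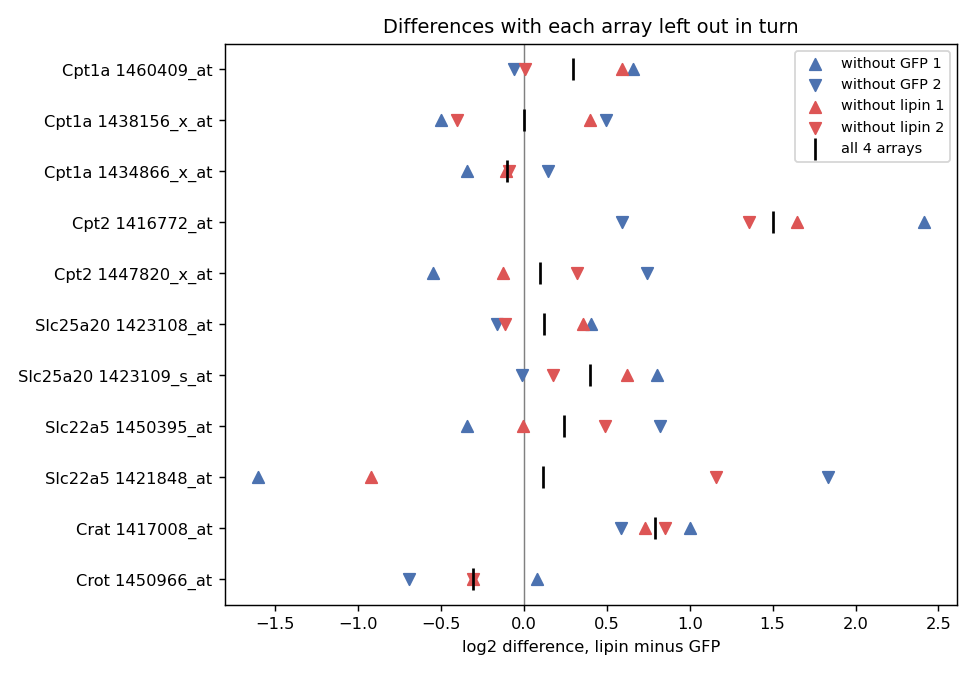
Log2 difference, lipin minus GFP (horizontal axis), of the 11 tested probe sets with all 4 arrays (black bars) and with each array left out in turn (triangles; blue for a GFP array, red for a lipin array, pointing up for replicate 1 and down for replicate 2). The sign turns for 9 of the 11, and Cpt2 1416772_at (0.59 to 2.41) and Crat 1417008_at (0.58 to 1.00) stay above 0.

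GFP replicate 2 was at an extreme for the shuttle genes throughout. It was the lowest of the 4 arrays on 6 of the 11 tested probe sets and the highest on the other 5, while 62.6% of all tested probe sets had it at either extreme (29.1% lowest and 33.5% highest). The 6 on which it was lowest are the brightest sets of Cpt1a, Cpt2, Crat and Crot and both of Slc25a20. The 5 on which it was highest are the 3 sets whose suffix marks possible matches elsewhere and both Slc22a5 sets. By the brightest probe set, the medians over the 6 genes, each centred on its own mean log2 value, were 0.19 and -0.43 on GFP replicates 1 and 2 and 0.11 and 0.32 on lipin replicates 1 and 2. GFP replicate 1 was thus above lipin replicate 1 in this median.

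**Figure D4:**
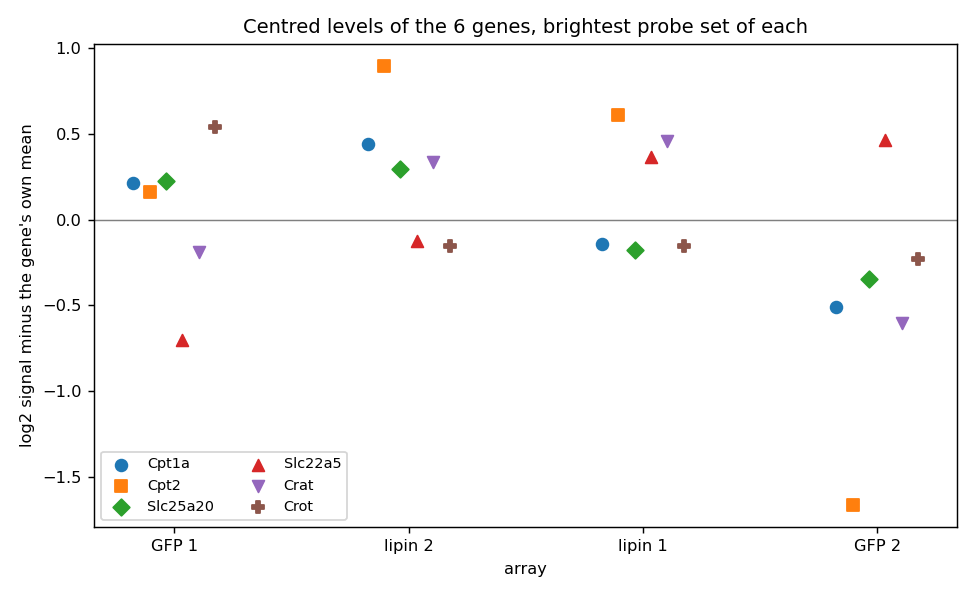
Log2 signal minus the gene's own mean (vertical axis) on each array (horizontal axis) for the brightest tested probe set of each of the 6 genes, 1 symbol a gene. On GFP replicate 2, 5 of the 6 genes have their lowest value and Slc22a5 its highest, and Cpt1a and Slc25a20 keep close to each other on all 4 arrays.

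The 6 genes did not share a single profile. Cpt1a and Slc25a20 were the closest pair, with a root mean square difference of 0.11 between their centred log2 values over the 4 arrays, and Cpt2 and Slc22a5 were the farthest apart, at 1.26. Among the 118 other tested genes of the pathway, regulator and marker lists, Cpt1a lay nearest to Bdh1, a ketone body dehydrogenase (0.070), and Etfa, a subunit of the electron transfer flavoprotein (0.10). Slc25a20 lay nearest to the same genes, Etfa (0.049) and Bdh1 (0.086). Cpt2 lay nearest to Acad8 (0.19) and Acadvl (0.30), both acyl-CoA dehydrogenases, Crat to Acads (0.14) and Etfb (0.16), and Crot to Acadm, the medium-chain dehydrogenase (0.11), and Rxra (0.20). Slc22a5 lay nearest to Acaa1a, a peroxisomal thiolase (0.14), and Nudt19, a peroxisomal hydrolase of coenzyme A (0.15). Over all 8492 other genes closer matches were found, such as Pklr for Cpt1a (0.035), L3hypdh for Cpt2 (0.043) and Cbr4 for Crot (0.016). With 4 arrays and 8493 genes such close matches are many, and they are given as a description.

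Genes around the shuttle were taken from lists chosen with earlier results of these data known. Of 11 other carnitine genes, 6 were tested, with a median log2 difference of 0.036, and 2 had both lipin arrays above both GFP arrays and 0 both below, beside 17.3% and 16% of all genes. The median ran from -0.097 without GFP replicate 1 to 0.28 without lipin replicate 2, and was 0.16 under quantile normalization. Bbox1, the last enzyme of carnitine synthesis, gave 13920 and 15628 for GFP against 14301 and 13392 for lipin, and its log2 difference was -0.092 ± 0.31 (limma SE, n = 2 per group). Aldh9a1, the aldehyde dehydrogenase of the same pathway, read 20579 and 19273 against 25002 and 26044, a difference of 0.36 ± 0.31 with no overlap. By the brightest set, Shmt2 gave 0.66 ± 0.41, Shmt1 -0.43 ± 0.49, Tmlhe, which starts carnitine synthesis, 0.027 ± 0.78, and the mitochondrial carrier Slc25a29 0.045 ± 0.39. The limma adjusted p of these 6 genes lay between 0.962 and 0.998. Other probe sets of these genes disagreed: those of Shmt1 ran from -0.73 to 0.90, the latter with no overlap (3334 at the highest in GFP, 5270 at the lowest in lipin), and those of Tmlhe from -1.10 to 0.51. For Slc25a29 they ran from -3.71, with lipin below GFP, to 2.90, with lipin above. The first of these sets read 96.7 and 125 in lipin and the other 151 and 126 in GFP, all near the level to which low signals were raised. The other sets of Shmt2 ran from 0.0016 to 1.52, and that of Aldh9a1 gave 0.72. Slc22a4 and Slc22a21 were too dim to test, and Cpt1b, Cpt1c and Slc16a9 were not analysed here.

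The list on the control of CPT1 through malonyl-CoA had its median below 0 with all 4 arrays. Over its 7 tested members it had a median log2 difference of -0.50, and in 4 of them both lipin arrays lay below both GFP arrays, with 0 above, against 16% and 17.3% over all genes. Acacb, the acetyl-CoA carboxylase that makes malonyl-CoA at mitochondria, gave 2166 and 1242 for GFP against 155 and 932 for lipin, so its log2 difference was -2.11 ± 0.92 (limma adjusted p = 0.962). It was -3.40 without lipin replicate 2 and -0.82 without lipin replicate 1. The AMPK subunits Prkag2 and Prkag1 gave -1.50 ± 0.98 and -0.50 ± 0.41 on their brightest sets, with the other tested Prkag1 set at -0.032, and Fasn, the fatty acid synthase, gave 0.73 ± 0.48, or -0.26 without GFP replicate 2. None passed, and the list's median was -0.062 without lipin replicate 2 and above 0, at 0.041, when only probe sets above the 60th percentile of mean signal were tested.

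Genes that supply acyl-CoA to the shuttle split in both directions. Of 8 tested members 2 had both lipin arrays above both GFP arrays and 2 below, near the 17.3% and 16% of all genes, and the median log2 difference was 0.29. Fabp1, the liver fatty acid binding protein, gave 1.01 ± 0.48, and Slc27a2 and Slc27a5, acyl-CoA synthetases for very long chains and bile acids, gave 0.64 ± 0.35 and 0.70 ± 0.43. Without GFP replicate 1 these were 0.34 and 0.085, and Slc27a5 was 0.16 without lipin replicate 2. Acsl4, a synthetase for long-chain fatty acids, gave -0.64 ± 0.49, and -0.26 without lipin replicate 1. The limma adjusted p of each was 0.962, and with an array left out the list's median ran from 0.0094 to 0.57.

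Downstream of CPT2, the mitochondrial beta-oxidation list had a median above 0. Its 19 members, none of them a carnitine gene, had a median log2 difference of 0.54 (1.45-fold), and in 10 both lipin arrays lay above both GFP arrays, with 3 below, beside 17.3% and 16% of all genes. The median was lowest, 0.33, when GFP replicate 2 was left out, and highest, 0.79, when GFP replicate 1 was. Etfdh, which passes the electrons to the respiratory chain, gave 1233 and 411 for GFP against 3274 and 5096 for lipin, a difference of 2.52 ± 0.59 (limma adjusted p = 0.804). Acadvl, the first enzyme after CPT2 for long chains, read 5770 and 2888 against 10133 and 11723, a difference of 1.42 ± 0.38. Hadha and Hadhb of the trifunctional protein gave 1.00 ± 0.39 and 0.90 ± 0.38. These 4 are the members of smallest p. The 19 ran from -1.88 to 2.52, and 4 lay below 0, among them Acadm at -0.45. As with the shuttle, GFP replicate 2 was the lowest array for 14 of the 19 members, against 27.3% of all genes tested. Without it Etfdh stood at 1.73, Acadvl at 0.92, Hadha at 0.58 and Hadhb at 0.37.

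Peroxisomal beta-oxidation genes, whose products CROT and CRAT convert, had a median log2 difference of 0.27 over 17 tested members, with 7 having both lipin arrays above both GFP arrays and 1 below, beside 17.3% and 16% of all genes. The bifunctional enzyme Ehhadh gave 1.19 ± 0.42, the isomerases Eci2 and Ech1 gave 0.97 ± 0.34 and 0.97 ± 0.39, and Hsd17b4 gave 0.82 ± 0.36 (limma adjusted p = 0.962 for each). These 4 are the members of smallest p, while the 17 ran from -1.27 to 1.19 and 4 lay below 0. Without GFP replicate 2, Ech1 and Hsd17b4 were at 0.43 and 0.41. Crot itself lay below 0. The 4 tested genes of ketone body synthesis and export had a median of 0.064, which fell below 0 on leaving out GFP replicate 2 (-0.18) or lipin replicate 2 (-0.055). Of these, Slc16a1, a monocarboxylate transporter, read 1179 and 1394 in GFP against 651 and 580 in lipin, a difference of -1.06 ± 0.72. Ppara gave 1688 and 1695 for GFP against 5452 and 13121 for lipin, and its log2 difference was 2.32 ± 0.44 (limma adjusted p = 0.660). The Ppara difference was 2.96 without lipin replicate 1, which leaves lipin replicate 2, labelled polyA RNA, as the only lipin array. Without lipin replicate 2 it was 1.69, and without GFP replicate 1 or 2 it was 2.32 or 2.33.

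**Figure D5:**
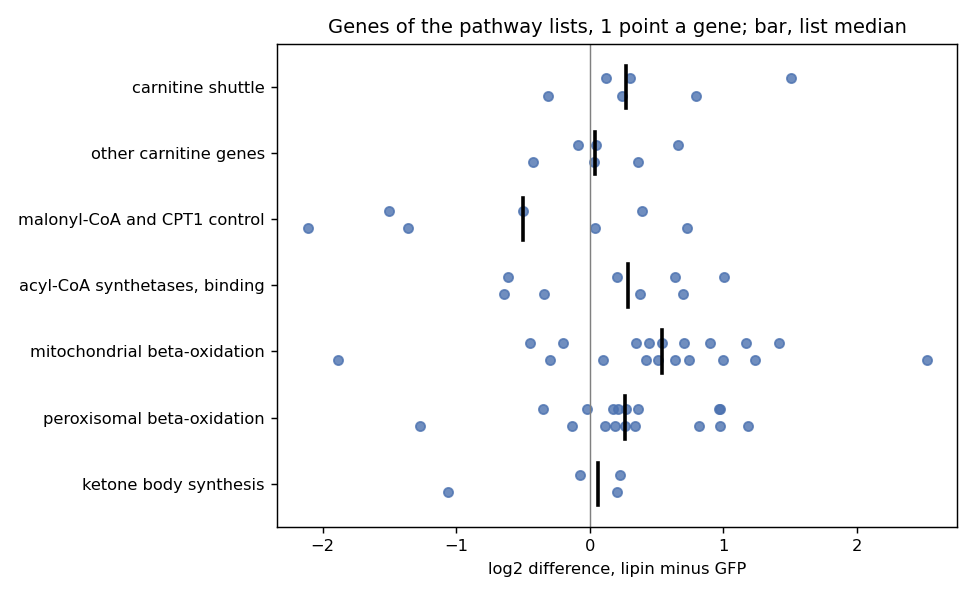
Log2 difference, lipin minus GFP (horizontal axis), of each gene of the 7 lists, by its brightest tested probe set, with 1 point a gene and a black bar at the list's median; the vertical offset of points only separates them. With all 4 arrays the medians run from -0.50 for the malonyl-CoA list to 0.54 for mitochondrial beta-oxidation, with the carnitine shuttle at 0.27; which list is highest changes when an array is left out.

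Markers of other liver cells were measured beside these genes. For comparison, 17.3% of the 8493 genes tested separated without overlap with lipin higher, and 16% with lipin lower. The marker counts that follow also include markers too dim to be tested, so these shares are only a rough guide. In the list of T and NK cells, 2 of 10 measured markers had both lipin arrays below both GFP arrays and 0 above. The summed signal ran from 4796 to 5120 in GFP and from 3494 to 4251 in lipin. Of these 10 markers, 7 lay under 119.5 on at least 1 array, Cd3d on all arrays, and only 4 were bright enough to be tested. For macrophages the summed signal ran from 30150 to 54449 in GFP and from 34445 to 52228 in lipin, and for hepatocytes from 1884546 to 3922692 and from 2584634 to 3089361, so the groups overlapped. Of the macrophage markers 1 of 10 and of the hepatocyte markers 2 of 8 had both lipin arrays above, with 0 below in either list. Summed B cell markers ran from 2703 to 3591 in GFP and from 1606 to 3926 in lipin, and 2 of 4 had both lipin arrays below. Endothelial markers summed to 12555 and 18266 in GFP and to 14474 and 16290 in lipin, with 3 of 8 above and 0 below. Stellate cell and fibroblast markers had 3 of 8 above and 2 below, and biliary markers 0 of 4 either way. Muscle and fat markers had 2 of 6 above and 1 below, and the sums of these lists also overlapped. Signals under 119.5 on at least 1 array occurred for 3 of the 4 biliary markers and 5 of the 6 muscle and fat markers. The part of these lists in the differences of the shuttle genes was not tested.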

How the data were processed

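The authors' deposited values are linear intensity values, with a single MAS5 signal for each probe set on each array. The submitters' processing notes name MAS5, and its version and scaling target are not given in the labels. No detection calls were used. Leaving out the 64 control probe sets, signals were raised to at least 119.5 (the 20th percentile) and log2 was taken. Probe sets whose mean log2 value reached the 40th percentile (a geometric mean of 373) were tested, 13576 in all and 11 of the 12 of the shuttle genes. MAS5 subtracts mismatch probes, which leaves dim sets noisy, and the floor understates their fold changes. Groups were compared over the whole table with limma 3.58.1 in R 4.3.3 (lmFit, eBayes with an intensity trend; 2 residual and 12.7 prior degrees of freedom). All tests used two-sided p-values, adjusted across the tested probe sets by Benjamini and Hochberg, and calls were made under 0.05. The fit was tested on simulated data. Errors of log2 differences are standard errors.

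Gene symbols came from the platform annotation, updated by Entrez identifier. Of 22626 probe sets, 20380 had 1 symbol, 691 several and 1555 none, and only those with 1 symbol were named. Each gene stands for its brightest tested probe set by mean.

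Groups came from the sample titles. The members and lists were chosen with earlier results of these data known, and lists received no test. Named are all probe sets of the 6 genes, Lpin1 and Ppara, the tested other carnitine genes, from each list the 4 tested genes of smallest p, and the 2 nearest profiles per gene; other names were chosen after their values were seen. Samples with the same replicate number were checked for a shared deviation from their group means, and the correlation was 0.028, so the number was not taken as a pairing. Alternatives were other floors and filters, quantile normalization, median centring, no trend, a replicate block, each array left out, and averaging the probe sets of a gene.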

Additional observations from a re-analysis of the deposited data

How the results depend on the processing

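The number of arrays limits every value, and no detection calls were used, so signal over background is unknown for single probe sets. Under quantile normalization, median centring, floors at the 10th and 30th percentiles, no filter, a filter at the 60th percentile and no trend, limma called 0 probe sets of the whole array and 0 of the shuttle genes, and the median of the 6 genes lay between 0.25 and 0.30; it was 0.22 when the probe sets of a gene were averaged, and 0.25 to 0.53 with an array left out. The replicate block leaves 1 residual degree of freedom and infinite prior degrees of freedom. With it, 52 of the 13576 probe sets tested were called. Of the 11 of the shuttle genes 1 was called, Cpt2 1416772_at (limma adjusted p = 0.00706). Ppara (8.67e-06), Etfdh (0.00452) and Acadvl (0.012) were also called there. With each array left out in turn the number called ran from 0 to 13, that of the shuttle genes was 0 each time, and their genes without overlap ran from 2 to 5 above and from 0 to 1 below.

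Signs turned at values near 0 under median centring for Cpt1a 1438156_x_at (0.027) and under quantile normalization for Slc16a7 (0.0012), and with the floor at the 30th percentile for Slc22a5 1421848_at (-0.28), whose lowest array lies under it. With an array left out, log2 differences whose sign turned ran from -0.063 to 0.66, -0.50 to 0.49 and -0.34 to 0.14 for the Cpt1a sets from bright to dim, -0.55 to 0.74 for Cpt2 1447820_x_at, -0.16 to 0.40 and -0.012 to 0.80 for Slc25a20, -0.34 to 0.82 and -1.60 to 1.84 for Slc22a5, -0.70 to 0.076 for Crot and -0.57 to 0.95 for Lpin1 1426516_a_at. Others ran from -0.73 to 0.78 for Tmlhe, -1.25 to 0.40 for Shmt1, -0.15 to 0.24 for Slc25a29, -0.26 to 1.72 for Fasn, -0.25 to 0.70 for Acat1, -0.14 to 0.54 for Bdh1 and -0.18 to 0.033 for Slc16a7. List medians changed sign for malonyl-CoA control with the filter at the 60th percentile (0.041), and with an array left out for other carnitine genes (-0.097 to 0.28) and ketone body synthesis (-0.18 to 0.24). The cause was not tested.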
